A study of Mus musculus with 24 samples.

Results

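The 7 genes described here encode enzymes and regulators of cholesterol and fatty acid synthesis. Hmgcs1 and Sqle are enzymes of the cholesterol pathway, Srebf1 and Srebf2 encode the transcription factors SREBP-1 and SREBP-2, and Acaca, Fasn and Scd1 are enzymes that make and desaturate fatty acids. They were taken by symbol from a deposited table of H3K4m3-Seq values, and all 7 of 7 were found there among 27179 genes and passed the filter that left 25680 genes for testing. H3K4m3-Seq sequences the DNA recovered with an antibody against histone H3 trimethylated on lysine 4, a mark found around the start sites of active and poised genes. The table has 8 columns, 1 for brain, heart, kidney and liver tissue of the mouse in each of 2 states: FFPE, which is fixed in formalin and embedded in paraffin, and flash frozen. Each column is called a library here. The labels list 12 H3K4m3 samples, 8 FFPE and 4 frozen, so an organ has 2 FFPE samples but only 1 FFPE column, and the sources used here do not say whether it holds 1 of them or both. Nor do they give strain, age or number of animals, and nothing ties the libraries to separate animals. The p-values below reflect only how much these libraries scatter, and that scatter may be technical.

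Cholesterol is built from acetyl-CoA through mevalonate and squalene, and fatty acids are built from the same precursor through malonyl-CoA. SREBP factors are held in the endoplasmic reticulum by Scap and Insig proteins. When sterols are low they are carried to the Golgi and cut, and the freed part enters the nucleus and binds sterol regulatory elements near the genes of both pathways, often beside sites of NF-Y and Sp1. Liver is a main site of both pathways in the body, and the brain makes its own cholesterol.

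The stretches of DNA at the start sites of these genes are shown because the mark is found around start sites and because these differ in the motifs they hold. Windows from 250 bases before to 50 bases after an annotated start were available from RefSeq on GRCm38.p6, the assembly that mm10 denotes, for 5 of the 7 genes. They gave 7 windows, since Srebf1 has 3. Sqle and Scd1 are named only. The 250 bases before the start follow for Hmgcs1 at chr13:119690101-119690350 (plus strand), Fasn at chr11:120824548-120824797 (minus strand), Srebf2 at chr15:82147019-82147268 (plus strand) and the innermost Srebf1 start at chr11:60210472-60210721 (minus strand), each read 5′ to 3′ on the strand of the gene. Capitals mark the sterol regulatory element core TCACNCCAC and the NF-Y box CCAAT, or ATTGG where the box lies on the other strand.
Hmgcs1: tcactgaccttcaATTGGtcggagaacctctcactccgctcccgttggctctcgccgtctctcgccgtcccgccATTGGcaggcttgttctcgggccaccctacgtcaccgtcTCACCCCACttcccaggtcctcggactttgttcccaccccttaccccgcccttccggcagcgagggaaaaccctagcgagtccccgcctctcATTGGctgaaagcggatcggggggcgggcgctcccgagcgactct
Fasn: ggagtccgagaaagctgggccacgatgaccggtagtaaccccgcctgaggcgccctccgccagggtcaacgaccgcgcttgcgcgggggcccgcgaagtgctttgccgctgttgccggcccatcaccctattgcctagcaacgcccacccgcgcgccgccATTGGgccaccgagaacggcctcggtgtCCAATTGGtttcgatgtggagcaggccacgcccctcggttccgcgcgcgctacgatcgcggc
Srebf2: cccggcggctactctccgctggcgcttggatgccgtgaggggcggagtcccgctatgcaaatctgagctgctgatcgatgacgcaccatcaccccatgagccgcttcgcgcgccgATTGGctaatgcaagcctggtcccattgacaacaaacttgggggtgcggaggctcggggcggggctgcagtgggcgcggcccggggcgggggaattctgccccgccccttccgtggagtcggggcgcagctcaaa
Srebf1: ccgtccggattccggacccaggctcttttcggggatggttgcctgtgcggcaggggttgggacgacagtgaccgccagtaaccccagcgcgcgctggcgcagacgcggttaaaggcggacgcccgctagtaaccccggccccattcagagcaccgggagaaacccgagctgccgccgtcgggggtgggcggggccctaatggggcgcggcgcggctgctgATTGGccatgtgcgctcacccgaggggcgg

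The sterol regulatory element core was searched on both strands and was present in 1 of the 7 windows, that of Hmgcs1, in which it began 137 bases before the start. It is present in 1.24% of the 32841 windows of the same 300 bases in the RefSeq table. The NF-Y box was present in 5 of the 7 windows, against 37.4% of all windows, and Hmgcs1 held 4 of them. Fasn held 3, of which the pair 62 and 59 bases before the start overlap each other in CCAATTGG. The Sp1 box GGGCGG was present in 4 of the 7 windows, against 35.7% of all windows, with 5 matches in Srebf2. Neither the E-box CACGTG, present in 7.15% of all windows, nor the TATA box TATAAA, present in 13.6%, had a match. A match is only a run of letters, and the absence of one says nothing about binding.

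CpG dinucleotides, which are dense at many start sites that carry this mark, were close to the number given by base composition at the Fasn window, with an observed over expected ratio of 1.09. The ratio was 0.864 at Srebf2, 0.848 at Hmgcs1, and 0.976 at the innermost Srebf1 start, against a median of 0.384 over all windows. The other Srebf1 starts had 0.769 and 0.478. The single Acaca window had a ratio of 0.0850 with 1 CpG, and it lies 65803 bases inside the annotated gene, so it is not the outermost start of Acaca.

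Among the 8 libraries the depth recovered from the deposited values was between 1792394 reads in frozen heart and 5275085 in FFPE kidney. The 7 genes had between 47 reads (Acaca, frozen heart) and 806 reads (Fasn, FFPE brain), which gives a counting error of 14.6% and 3.52% at those ends, covering counting error only. Levels are given below as CPM, reads scaled to a common library size, which is the deposited value without its log. Which stretch of a gene the reads were counted over is not stated, so levels are compared between libraries and not between genes. Of the organ markers, 6 of 6 kidney and 6 of 6 liver genes passed as higher in their own organ, as did 5 of 6 brain and 3 of 6 heart markers. Of all 25680 tested genes 1420 passed as higher in brain, 442 in heart, 206 in kidney and 1317 in liver. The heart marker Ryr2 passed as higher in brain (0.75 log2 units, limma adjusted p = 0.0204) and not in heart (0.28, adjusted p = 0.568). No marker had 0 reads in any library. FFPE and frozen chromatin were prepared by different procedures, and library kits of 2 makers are listed without saying which sample had which, so that preservation, preparation and kit cannot be told apart.

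**Figure D1:**
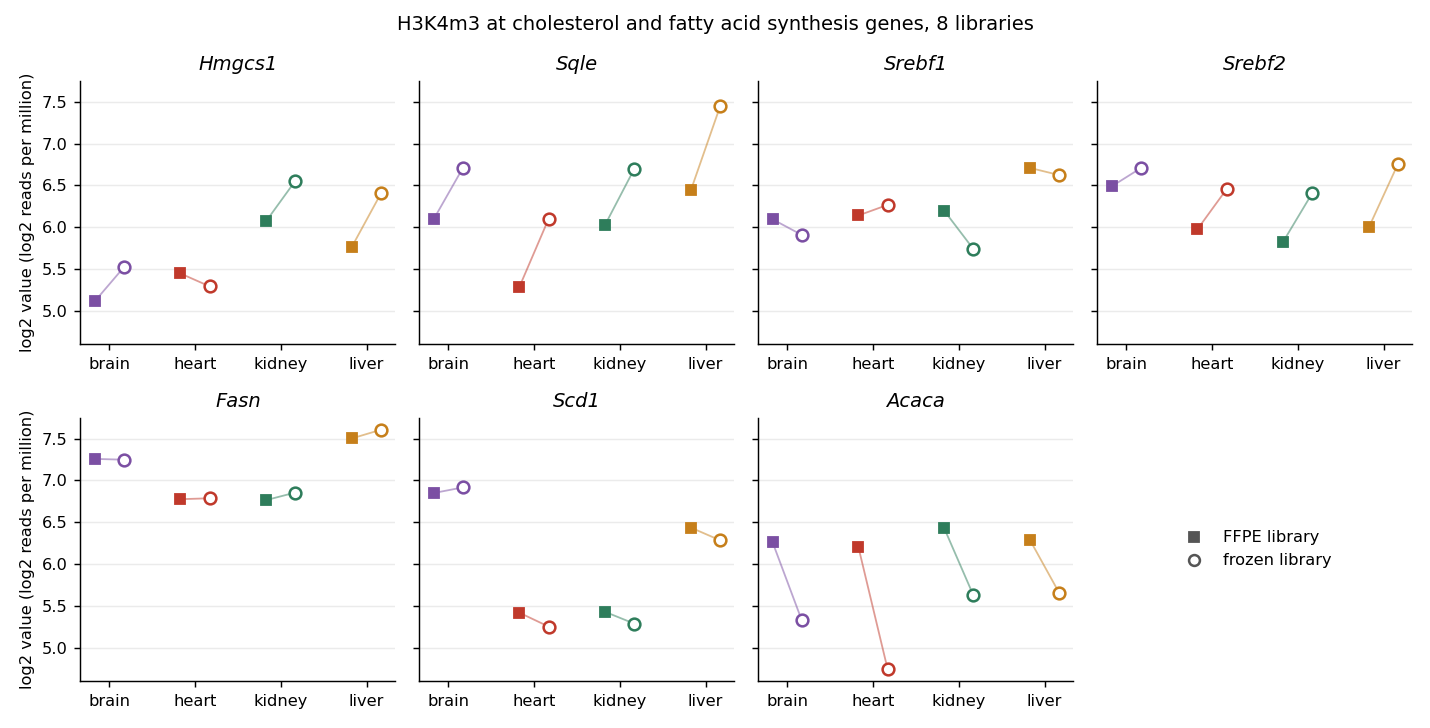
Deposited log2 value (vertical axis) of each of the 7 genes in the 8 libraries, by organ (horizontal axis), FFPE and frozen as separate points. Scd1 is highest in brain and Fasn and Srebf1 in liver in both states, and the 4 FFPE points of Acaca lie above its 4 frozen points.

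Liver carried more of the mark at Sqle, Fasn and Srebf1 than the mean of the other 3 organs, by 1.73-fold, 1.52-fold and 1.52-fold. Brain stood out at Scd1, with 2.30-fold the mean of the others. Heart was low at Sqle and Scd1, and kidney was low at Scd1. The remaining genes, Hmgcs1, Srebf2 and Acaca, did not pass for any organ set against the others. Each comparison was a limma fit over all 25680 tested genes with organ and preservation in 1 model and 3 residual degrees of freedom, and a gene passed with a Benjamini-Hochberg adjusted p under 0.05. In bulk tissue a lower share of cells with the mark and less of the mark per cell cannot be told apart.

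In liver, 3 of the 7 genes passed as higher and none as lower, against backgrounds of 5.13% and 4.84% of all tested genes. All 7 differences were positive, with a median of 0.50 log2 units, against a median of -0.01 over all tested genes, although Srebf2 (0.07) was at -0.07 under quantile normalization. In heart, 2 of 7 passed as lower, where 0.853% of all genes did, and all 7 differences were negative with a median of -0.46 against -0.04 over all genes, although Srebf1 (-0.01) was at 0.03 under quantile normalization. Brain had 1 of 7 as higher and none as lower (5.53% and 4.53% of all genes), and kidney 1 of 7 as lower (0.405% of all genes), with medians of 0.07 and -0.28. The same libraries enter all 4 of these comparisons, so an organ can be low at a gene because another is high there. Without an intensity trend in limma's estimate of spread the values stayed the same, but the 7 organ calls of these genes were lost, with adjusted p from 0.0585 for Scd1 in brain to 0.411 for Scd1 in kidney. That setting left 0 of all 25680 tested genes as calls in heart, kidney and liver. It left 217 in brain, where the main fit had 2583.

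Hmgcs1 encodes the cytosolic HMG-CoA synthase, which acts early in cholesterol synthesis, and lies at chr13:119690351-119708260. It had 34.6, 43.6, 67.4 and 54.5 CPM in FFPE brain, heart, kidney and liver, and 45.9, 39.2, 94.0 and 84.9 CPM in frozen brain, heart, kidney and liver. Kidney and liver were above brain and heart within each state. On the log2 scale kidney averaged 6.31 ± 0.34, liver 6.09 ± 0.45, heart 5.37 ± 0.11 and brain 5.32 ± 0.29 (SD, n = 2 libraries each, 1 FFPE and 1 frozen). This SD thus holds the difference between FFPE and frozen tissue. Of neighbours in this order, liver minus kidney was -0.23 (adjusted p = 0.784), liver minus heart 0.72 (adjusted p = 0.107) and brain minus heart -0.05 (adjusted p = 0.956), none of which passed. Among the pairs only the ends of the order passed. Kidney exceeded brain by 1.00 ± 0.25 log2 units (SE, limma adjusted p = 0.0257), with 0.96 within FFPE and 1.03 within frozen tissue. In the comparison with the other 3 organs, kidney reached 0.72 (adjusted p = 0.124) and brain -0.61 (adjusted p = 0.0773).

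Sqle encodes squalene epoxidase, which adds the oxygen that later becomes the hydroxyl of cholesterol, and lies at chr15:59315092-59331193. It had 68.4, 39.0, 65.4 and 87.2 CPM in FFPE brain, heart, kidney and liver, and 104.5, 68.6, 104.0 and 174.4 CPM in frozen brain, heart, kidney and liver. Liver was highest and heart lowest in both states. The liver difference was 0.79 ± 0.17 log2 units (SE; adjusted p = 0.00827), with 0.64 within FFPE and 0.94 within frozen tissue, although the FFPE liver library lay below frozen brain and kidney. Heart differed from the others by -0.88 ± 0.17 (adjusted p = 0.0159), and was exceeded by liver by 1.25 ± 0.21 (adjusted p = 0.00328). Brain and kidney lay between these and differed by only -0.04 as kidney minus brain (adjusted p = 0.977), and neither the step from liver to brain (0.54, adjusted p = 0.111) nor that from kidney to heart (0.67, adjusted p = 0.196) passed. Without the frozen liver library the liver difference was 0.64 (adjusted p = 0.139), and the heart call was lost without any 1 of FFPE brain, heart and kidney and frozen heart and kidney (adjusted p between 0.0597 and 0.325).

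Srebf1 encodes SREBP-1, whose forms act mainly on fatty acid synthesis, and lies at chr11:60199084-60224186. It had 68.4, 70.6, 73.4 and 104.7 CPM in FFPE brain, heart, kidney and liver, and 60.1, 77.0, 53.5 and 98.7 CPM in frozen brain, heart, kidney and liver. Both liver libraries lay above all 6 others, a pattern shown as higher by 5.12% of tested genes. The liver difference was 0.61 ± 0.18 log2 units (SE; adjusted p = 0.0441), with 0.56 within FFPE and 0.65 within frozen tissue. This call was near the threshold, and it was lost on leaving out any single library (adjusted p between 0.0504 and 0.254) and under quantile normalization (0.50, adjusted p = 0.0657). The other organs did not separate, with brain minus heart at -0.20 (adjusted p = 0.746), kidney minus brain at -0.03 (adjusted p = 0.981) and the step from liver down to heart at 0.46 (adjusted p = 0.260). The gene shares 114 bases at its end with the neighbouring gene Rai1, whose reads could not be separated there.

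Srebf2 encodes SREBP-2, which acts mainly on cholesterol synthesis and uptake, and lies at chr15:82147269-82205379. It had 89.8, 62.9, 56.8 and 64.1 CPM in FFPE brain, heart, kidney and liver, and 104.5, 87.8, 85.0 and 108.5 CPM in frozen brain, heart, kidney and liver. No organ stood apart in both states. Its organ means on the log2 scale were 6.60 ± 0.15 in brain, 6.38 ± 0.54 in liver, 6.22 ± 0.34 in heart and 6.12 ± 0.41 in kidney (SD, n = 2 libraries each, 1 FFPE and 1 frozen). Here too the SD holds the difference between FFPE and frozen tissue. No neighbours in this order passed, with liver minus brain at -0.22 (adjusted p = 0.625), liver minus heart at 0.17 (adjusted p = 0.742) and kidney minus heart at -0.10 (adjusted p = 0.945), and the widest pair, kidney minus brain, was -0.48 (adjusted p = 0.280). The microRNA gene Mir33, which lies inside Srebf2 and whose product represses cholesterol export genes, had between 0 and 6 reads in the table and was below the filter.

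Acaca encodes acetyl-CoA carboxylase 1, which makes malonyl-CoA for fatty acid synthesis, and lies at chr11:84129635-84401651. It had 76.5, 73.6, 86.1 and 78.1 CPM in FFPE brain, heart, kidney and liver, and 40.1, 26.8, 49.4 and 50.4 CPM in frozen brain, heart, kidney and liver. FFPE values lay close together, frozen heart was the lowest library, and no pair of organs passed: kidney minus heart, the widest, was 0.55 (adjusted p = 0.439). Liver minus kidney was -0.06 (adjusted p = 0.960), liver minus brain 0.18 (adjusted p = 0.753) and brain minus heart 0.32 (adjusted p = 0.613).

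Fasn encodes fatty acid synthase, which builds palmitate from malonyl-CoA, and lies at chr11:120805958-120825166. It had 152.9, 109.5, 108.7 and 181.2 CPM in FFPE brain, heart, kidney and liver, and 151.9, 110.3, 115.7 and 194.8 CPM in frozen brain, heart, kidney and liver. The FFPE and frozen values of an organ were close to each other, and both liver libraries lay above the 6 others, as 5.12% of tested genes showed. The liver difference was 0.61 ± 0.15 log2 units (SE; adjusted p = 0.0205), with 0.57 within FFPE and 0.64 within frozen tissue. Liver exceeded heart by 0.77 ± 0.19 (adjusted p = 0.0219) and kidney by 0.74 ± 0.19 (adjusted p = 0.0424), but its difference from brain, next in order, was 0.30 (adjusted p = 0.377). Brain in turn was not separated from kidney (kidney minus brain -0.44, adjusted p = 0.238), and kidney minus heart was 0.03 (adjusted p = 0.987). The liver call was lost without FFPE kidney or without any 1 of the 4 frozen libraries, with adjusted p between 0.0598 and 0.135, while the difference stayed between 0.57 and 0.64 over all 8 omissions.

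Scd1 encodes a stearoyl-CoA desaturase, which puts the double bond into oleate and palmitoleate, and lies at chr19:44394450-44407709. It had 115.2, 42.7, 43.0 and 86.5 CPM in FFPE brain, heart, kidney and liver, and 120.7, 38.1, 39.0 and 77.9 CPM in frozen brain, heart, kidney and liver. Both brain libraries were above the 6 others, which 7.56% of tested genes showed. Both heart and both kidney libraries were below all others, a pattern whose share among all tested genes was not counted. Brain differed from the other organs by 1.20 ± 0.17 log2 units (SE; adjusted p = 0.000468), with 1.09 within FFPE and 1.31 within frozen tissue. Heart (-0.86 ± 0.17, adjusted p = 0.0202) and kidney (-0.84 ± 0.17, adjusted p = 0.0326) passed as lower. The order of levels was brain, liver, kidney and heart.

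Among the pairs at Scd1, brain minus heart was 1.55 ± 0.21 (adjusted p = 0.000641) and kidney minus brain -1.53 ± 0.21. Liver exceeded kidney by 1.00 ± 0.21 (adjusted p = 0.0197) and heart by 1.02 ± 0.21 (adjusted p = 0.0106). Liver minus brain did not pass (-0.52, adjusted p = 0.143), although both brain libraries lay above both liver libraries. Kidney minus heart did not pass either (0.02, adjusted p = 0.990). Without the frozen brain library the brain difference was 1.09 (adjusted p = 0.0779), while the heart and kidney calls were each lost without any 1 of the 6 brain, heart and kidney libraries, with adjusted p of at least 0.0575 and 0.0732.

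**Figure D2:**
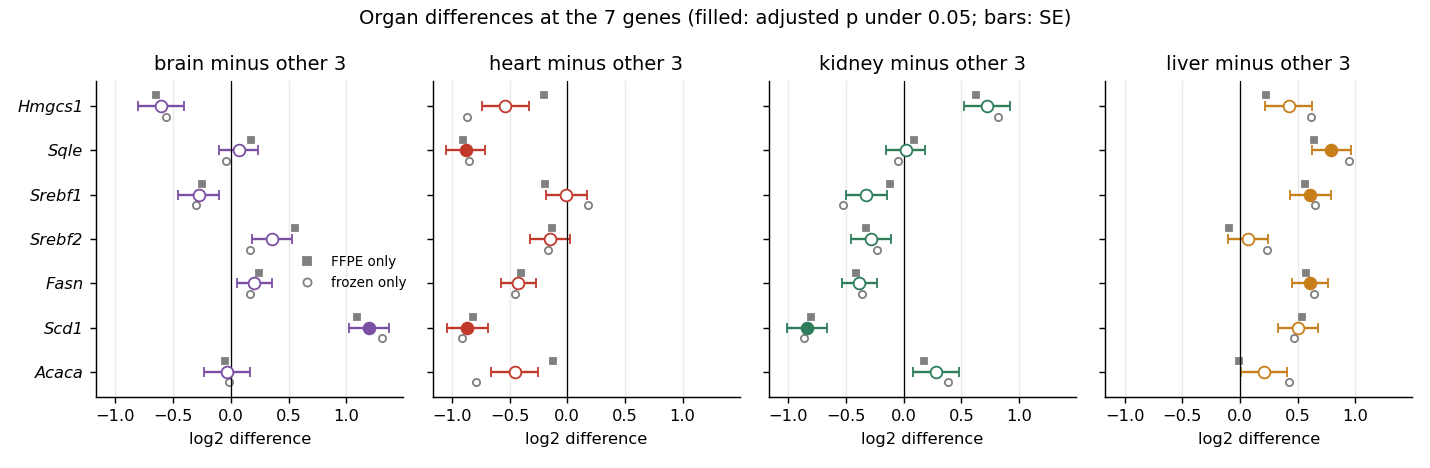
Difference of each organ from the mean of the other 3 (horizontal axis, log2 units) at each of the 7 genes, with SE bars, filled where the adjusted p was under 0.05; small marks give the same difference in FFPE (squares, above) and frozen (circles, below) libraries alone. Liver is right of 0 at all 7 genes in the pooled fit, and Scd1 in brain at 1.20 is farthest from 0.

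Of the 42 differences between pairs of organs at these genes, 8 passed. Liver against heart had 3 of 7 genes as higher (3.47% of all tested genes), liver against kidney 2 of 7 (1.81%), and brain against heart 1 of 7 (3.01%). Kidney against brain had 1 gene as higher (2.77%) and 1 as lower (3.52%). Neither liver against brain nor kidney against heart had a member that passed, where 12.9% and 0.962% of all genes passed in either direction. Of these 8 calls, 7 were lost on leaving out at least 1 library. Hmgcs1 in kidney against brain lost its call without any 1 of the brain and kidney libraries (adjusted p between 0.158 and 0.444), and Scd1 in the same pair without frozen brain (adjusted p = 0.0521). Against heart, liver lost its call at Sqle without frozen heart (adjusted p = 0.0943), at Scd1 without either heart library (0.0626 and 0.177) and at Fasn without any of 5 libraries, those of heart and kidney and frozen liver (0.0643 to 0.253). Against kidney, liver lost its call at Scd1 without either kidney library or frozen liver (0.0565 to 0.467) and at Fasn without any library but FFPE liver (0.0735 to 0.632). Scd1 in brain against heart passed under all 8 omissions.

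Markers of cell types that make or store lipid were read beside these results. The 8 oligodendrocyte markers, genes of the myelin-forming cells, summed to 315 CPM in FFPE brain and 329 CPM in frozen brain, against 194 to 199 CPM in the other FFPE libraries and 115 to 157 CPM in the other frozen libraries. Mbp was the largest part of the brain sums, at 110 CPM in FFPE and 164 CPM in frozen brain. Of the 8, 3 passed as higher in brain, as Scd1 and 5.53% of all tested genes did. The 12 adipocyte markers summed to 280 CPM in FFPE liver and 473 CPM in frozen liver, against 206 to 294 CPM in the other FFPE libraries and 187 to 320 CPM in the other frozen libraries. Most of the 12 were not high in liver: 4 of 12 differences were positive, the median was -0.43, and their mean log2 value was 4.17 in FFPE liver and 3.64 in frozen liver, against 3.88 to 4.29 in the other FFPE and 3.47 to 3.73 in the other frozen libraries. In liver 2 of these 12 passed as higher, against 5.13% of all tested genes. They were Cidec (48.4 CPM in FFPE liver and 75.5 CPM in frozen liver) and Pck1 (40.0 CPM in FFPE liver and 282 CPM in frozen liver), and liver tissue itself uses both genes. Pck1 was the largest part of the sum in frozen liver. No marker of either list had 0 reads in any library, and the part of these cells in the results for Scd1, Fasn, Srebf1 and Sqle was not tested.

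The rest of the cholesterol pathway, 19 other enzymes, had 5 that passed as higher in liver and none that passed as lower, against 5.13% and 4.84% of all tested genes, with 18 of 19 differences positive and a median of 0.49, against -0.01 over all genes. Fdps, which makes farnesyl diphosphate, had 64.5 CPM in FFPE liver and 97.5 CPM in frozen liver, against 28.0 to 48.6 CPM in the other FFPE and 29.1 to 49.7 CPM in the other frozen libraries (1.12 ± 0.21 log2 units, adjusted p = 0.00422). Lss, the cyclase that follows Sqle, rose by 0.76 ± 0.21 (adjusted p = 0.0347). Tm7sf2, a sterol reductase, also passed (0.91). In heart, 2 of the 19 passed as lower, against 0.853% of all tested genes, Idi1 (-0.76, adjusted p = 0.0377) and Fdps (-0.85, adjusted p = 0.0484). Both calls were lost without any 1 of the 6 brain, heart and kidney libraries, and the count ranged from 0 to 5 over the 8 omissions. Brain and kidney had none that passed in either direction.

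Of 19 other genes of fatty acid synthesis, 6 passed as higher in liver and 1 as lower, against 5.13% and 4.84% of all tested genes, with a median of 0.32 against -0.01 over all genes. The 6 include Mlycd (0.57, limma adjusted p = 0.0455), whose product breaks down malonyl-CoA and whose call was near the threshold. Fads2, a desaturase of polyunsaturated fatty acids, was higher by 1.19 ± 0.21 (adjusted p = 0.00261), and Elovl1, which lengthens saturated chains, by 1.14 ± 0.23 (adjusted p = 0.00581). The exception was Scd2, a second stearoyl-CoA desaturase, with 55.0 CPM in FFPE liver and 32.8 CPM in frozen liver, against 74.6 to 157 CPM in the other FFPE and 105 to 198 CPM in the other frozen libraries (-1.51 ± 0.25, adjusted p = 0.0018). Scd1 in liver lay at 0.50 (adjusted p = 0.0928), on the other side of 0. In brain 1 of the 19 passed as higher and 2 as lower (5.53% and 4.53% of all tested genes). There both desaturases were high, Scd2 by 1.23 ± 0.25 (adjusted p = 0.00502), while Elovl1 (-1.16) and Fads2 (-0.72) passed as lower. Thrsp, a regulator of lipogenesis known from liver and fat, was the 1 gene of the list that passed as lower in kidney, where 0.405% of all tested genes did (-1.58 ± 0.22, adjusted p = 0.00252).

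The third list held 19 genes of SREBP processing and sterol regulation, of which 18 were tested. In liver 6 of them passed as higher and 1 as lower, against 5.13% and 4.84% of all tested genes, with a median of 0.40 against -0.01 over all genes. Nr1h3, which encodes liver X receptor alpha, an activator of Srebf1, was higher by 1.12 ± 0.26 (adjusted p = 0.0144). Mlxipl, the carbohydrate-responsive factor ChREBP, was higher by 1.01 ± 0.24 (adjusted p = 0.017). Insig1 (0.67) and Npc1 also passed, and Mylip, a ubiquitin ligase induced by liver X receptors, passed as lower (-0.72). In brain, where 4.53% of all tested genes passed as lower and 5.53% as higher, Mlxipl (-1.03) and Nr1h3 (-0.97) passed as lower and Abcg1, a cholesterol exporter, as higher (0.77). Of the 3 lists, 15, 16 and 12 genes were matched in the promoter table, with 18, 19 and 17 RefSeq windows. Only 1 of these windows, at Mlxipl, held the sterol regulatory element core, against 1.24% of all windows. Among the 7 genes Hmgcs1 had it.

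Leaving out either liver library leaves 1 liver library. Far fewer of all tested genes then passed in liver without the frozen one, but more passed without the FFPE one. Calls lost without the frozen liver library thus cannot be read as particular to these lists. The number of genes that passed as higher in liver changed over the 8 omissions in each of the pathway lists. Over these omissions the liver difference smallest in size was 0.799 at Fdps, 0.978 at Fads2, 0.854 at Elovl1 and -0.868 at Scd2. It was 0.518 at Tm7sf2, 0.329 at Insig1, 0.565 at Lss and -0.319 at Mylip. At Mlycd it was 0.530, at Nr1h3 0.503, at Mlxipl 0.831 and at Npc1 0.551. The liver call of Mlycd was lost on leaving out any single library, and those of Nr1h3, Mlxipl and Npc1 on leaving out some. The liver calls of Fdps, Fads2, Elovl1 and Scd2 each passed under 7 of the 8 omissions, those of Tm7sf2 and Insig1 under 2 and those of Lss and Mylip under 1. In brain, Elovl1 and Scd2 lost their calls without either brain library, Mlxipl without frozen brain, Nr1h3 under 4 omissions, Abcg1 under 5 and Fads2 under 6, and in kidney Thrsp lost its call without frozen kidney. The 6 liver markers summed to 413 CPM in FFPE liver and 1245 CPM in frozen liver, against 38.7 to 87.5 CPM in the other libraries.

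**Figure D3:**
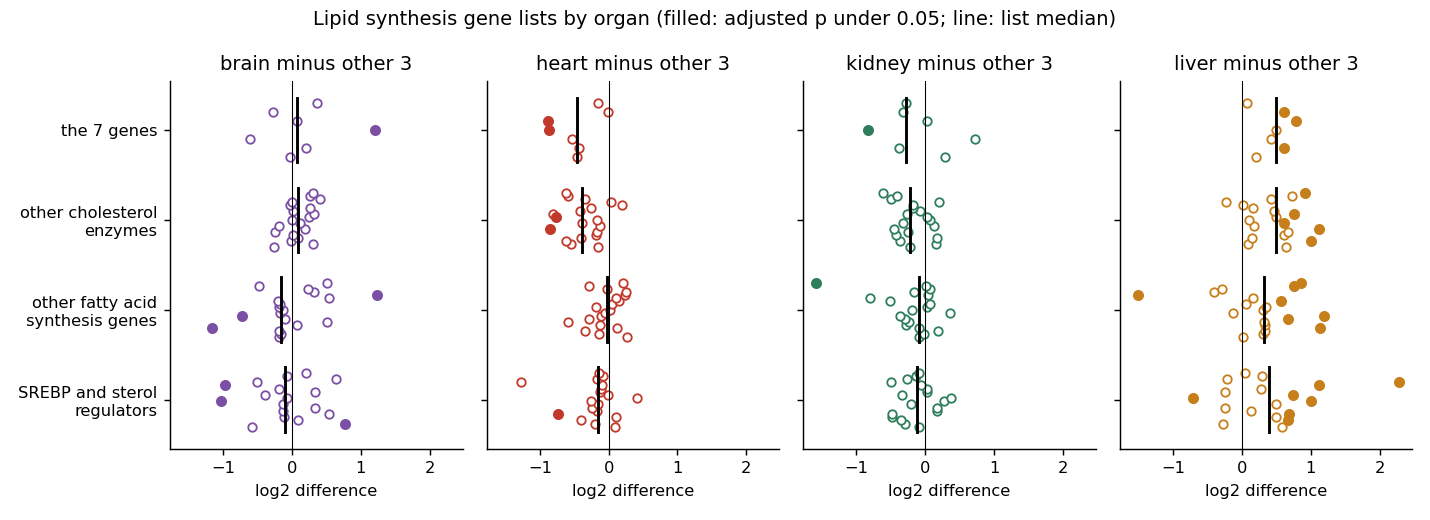
Difference of each organ from the mean of the other 3 (horizontal axis, log2 units) for each tested gene of the 7 and of the 3 pathway lists (rows), with 1 panel per organ, points filled where the adjusted p was under 0.05 and a thick line at each list's median. In liver the medians lie right of 0, between 0.32 and 0.50, and Scd2 lies farthest left at -1.51.

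Between FFPE and frozen tissue, Acaca was higher and Sqle and Srebf2 were lower in FFPE, and the other 4 genes did not pass. Of the 7, 1 passed as higher (16.5% of all tested genes) and 2 as lower (21.3% of all tested genes), which is close to those backgrounds. The median over the 7 was -0.05, against 0.18 over all tested genes. That overall shift depends on the scaling. With quantile normalization the median over all genes was 0.02. Of these 7 genes 4 then passed as higher (Srebf1 at 0.59, Fasn at 0.49, Scd1 at 0.46 and Acaca) and none as lower. Of 25597 tested genes 6667 then passed in either direction, 3255 of them as higher. The directions given here for FFPE thus hold for the deposited scaling. FFPE libraries were deeper, with 3388631 to 5275085 reads against 1792394 to 2976029 in frozen ones. Of the cell type markers, 5 of 12 adipocyte and 4 of 8 oligodendrocyte genes passed as higher in FFPE, and none as lower. Such calls were not limited to these cell types. Of the organ markers, 1 of 6 brain, 2 of 6 heart, 2 of 6 kidney and 0 of 6 liver genes passed as higher, and none as lower. The part of depth and of adipocytes or oligodendrocytes in the FFPE results was not tested.

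Acaca in FFPE was 1.94-fold its frozen level (0.96 ± 0.17 log2 units, SE; adjusted p = 0.00116). All 4 FFPE libraries, at 73.6 to 86.1 CPM, lay above all 4 frozen ones, at 26.8 to 50.4 CPM, a separation shown as higher by 13.1% of tested genes. Its difference was above that of 81.8% of all tested genes. The gene is 272 kb long, and among the 1005 tested genes over 200 kb its difference was above that of 95.5%, where the median was 0.15. It shares 10 bases at its start with Tada2a, whose own FFPE minus frozen difference was -0.32, and it contains the predicted gene Gm11437 over 19116 bases, whose difference was 0.87 and whose reads, 7 to 83 per library, could not be separated from those of Acaca. The related Acacb, which makes malonyl-CoA at mitochondria and restrains fatty acid oxidation, was also higher in FFPE, by 1.16 ± 0.19 (adjusted p = 0.000644).

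Sqle in FFPE differed from frozen by -0.77 ± 0.15 log2 units (SE; adjusted p = 0.00143), and the sign held in 4 of 4 organs, where FFPE values fell by 0.61 in brain, 0.67 in kidney, 0.81 in heart and 1.00 in liver. Srebf2 differed by -0.51 ± 0.15 (adjusted p = 0.0174), with values from -0.22 in brain to -0.76 in liver. A negative sign in 4 of 4 organs was shown by 26.6% of tested genes. Under quantile normalization neither passed, with Sqle at -0.32 and Srebf2 at -0.09. Srebf2 also lost its call without the FFPE or frozen library of heart or kidney (adjusted p between 0.0504 and 0.0912). Hmgcs1 had -0.34 ± 0.17 (adjusted p = 0.128), with a positive value of 0.15 in heart alone. Srebf1 (0.15, adjusted p = 0.440), Scd1 (0.10, adjusted p = 0.618) and Fasn (-0.05, adjusted p = 0.777) were nearer to 0 on the deposited scale.

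**Figure D4:**
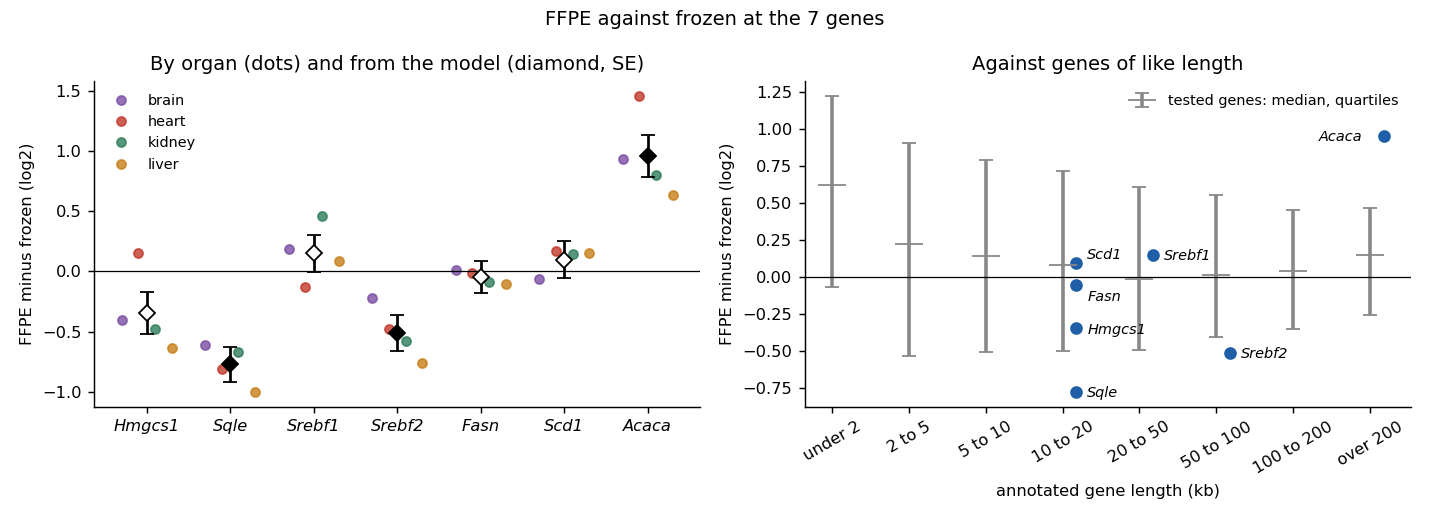
Left, FFPE minus frozen (vertical axis, log2 units) at each of the 7 genes, with a dot per organ and a diamond with SE bars from the model, filled where the adjusted p was under 0.05; right, the model's difference against annotated gene length (kb), with the median and quartiles of all tested genes in each length class. Acaca is above 0 and Sqle and Srebf2 are below 0 in 4 of 4 organs, and Acaca lies above the upper quartile of 0.47 of genes over 200 kb.

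In the pathway lists, counts in FFPE are read against 21.3% of all tested genes that passed as lower and 16.5% as higher, and medians against 0.18 over all genes. Of the 19 other cholesterol enzymes, 8 passed as lower and none as higher, with a median of -0.46. The 3 with the smallest p were Cyp51 (-0.96 ± 0.14), a sterol demethylase, Idi1 (-0.96 ± 0.15), an isoprenoid isomerase, and Pmvk, a mevalonate pathway kinase that fell by 1.00 ± 0.16. Of the 19 other fatty acid genes, 7 passed as lower and 2 as higher, with a median of -0.40, among them Mcat (-1.07), of mitochondrial fatty acid synthesis, and Mlycd (-0.82), which breaks down malonyl-CoA. Of the 18 tested regulators, 7 passed as lower and 1 as higher, with a median of -0.45. They included Insig1 (-1.03), Mlx (-0.84) and Nr1h2 (-0.82), and the exception was Abcg1 (0.92). Under quantile normalization 6 cholesterol enzymes passed as lower and none as higher, 3 fatty acid genes as lower and 2 as higher, and 3 regulators as lower and 3 as higher. In that setting 6667 of 25597 tested genes passed in either direction, 3255 of them as higher.

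Whether the preservation difference of a gene varied between organs was tested with 1 interaction term at a time, which leaves 2 residual degrees of freedom. None of the 28 tests of the 7 genes passed in limma, the smallest adjusted p was 0.567, and 0 had an unadjusted p under 0.05. Over all genes 1.04% passed for liver and none for the other organs. The widest departures were at heart, where FFPE minus frozen was 1.46 at Acaca against a mean of 0.79 in the other organs, and 0.15 at Hmgcs1 against -0.51.

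The genes whose profiles were most like those of the 7 were taken by Pearson's r over the 8 libraries among 14963 genes with a mean log2 value of at least 4, after centring within FFPE and within frozen. Among the 3 closest to Fasn were Klhl25 (r = 0.980) and Hmces. Hmgcs1 was closest to Atxn7 (r = 0.990), Klhdc7a and Ipmk, and Acaca to Ldhd (r = 0.993), Usp48 and Gps1. Sqle was closest to Fam228b, Atp23 and Foxk2, Srebf1 to Qsox1, Lsm8 and Trib3, and Srebf2 to Smarcd2, Tspyl2 and Ccdc28a. Among the 3 closest to Scd1 were Setd1a and Mon1a. Among the 7 themselves the highest values were 0.84 between Sqle and Fasn, 0.83 between Hmgcs1 and Acaca, 0.82 between Srebf2 and Scd1 and 0.81 between Fasn and Scd1, and the lowest was -0.40 between Hmgcs1 and Srebf2. These values share the libraries and their depth and describe 8 points each.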

How the data were processed

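The values came from 1 table that the authors deposited, with normalized log2 values per gene in 8 columns. Per the submitters' processing notes, Bowtie2, featureCounts, limma and mm10 were used. No versions are stated for them. Columns name organ and preservation only, and were taken as H3K4m3 from the titles. Whole reads were recovered from log2 of (reads + 0.5) over the scaled library size within 0.001 for 100% of values. Genes with a mean log2 value of at least 0 were tested with limma 3.58.1 in R 4.3.3 (organ plus preservation, empirical Bayes with intensity trend), checked on simulated data, with adjusted p over all 25680. Alternatives were no filter, quantile normalization, precision weights, a prior of 2 reads, no trend, no organ term and leaving out each library. Named genes were all 7 members, the 3 most like each, and up to 3 per pathway list and comparison with the smallest p among those that passed, plus the largest opposite one; the others named were chosen after their values were seen. The members and lists were chosen with earlier results of these data known. Coordinates and sequences are from RefSeq (GRCm38.p6), whose gene table matched 25275 of 27179 gene IDs. Input samples were not analysed here. Some genes that count in the lists and in the ranking by likeness are not reported here by name.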

Additional observations from a re-analysis of the deposited data

Results flagged for a closer look

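Srebf1 in FFPE liver, at a log2 value of 6.71, stood apart from the other 3 FFPE libraries. Its gap to the nearest of them was 0.832 of the range of the 4 libraries, just above Dixon's critical value. It was the only 1 of 14 such groups of 4 libraries (7 genes, FFPE and frozen) that did. Chance gives about 1 in 20 among like samples. The 4 libraries of a group are different organs, so that rate need not apply here. The same value enters the liver call of Srebf1 above. Liver was also the highest frozen library at this gene, at 6.62.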

How the results depend on the processing

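No paired analysis was possible because the columns carry no replicate numbers, in the sense of a block by replicate number. The organ term in the model compares FFPE with frozen tissue within each organ. With 8 libraries and 3 residual degrees of freedom, calls depended on how the spread was estimated and on single libraries. Leaving out a library leaves 1 library of its organ. In each of the 4 organs far fewer of all tested genes passed without its own frozen library. In liver, more passed without its FFPE library. Calls of named genes lost without the frozen library of the organ are thus not particular to those genes. No filter and a prior of 2 reads ended no call of the 7 genes in the comparisons of an organ with the others or of FFPE with frozen. With quantile normalization, Hmgcs1 also passed in brain (-0.63, making 1 lower) and kidney (0.80, making 1 higher), and Srebf1 in liver (0.50) did not pass. Signs of values that had not passed turned at Srebf1 in heart (0.025), Srebf2 in liver (-0.069) and Srebf1 in kidney against brain (0.025, and 0.0079 with precision weights). For FFPE against frozen it gave 4 genes higher and 0 lower, with Hmgcs1 (0.022) and Fasn (0.49) reversed, Srebf1 (0.59) and Scd1 (0.46) passing, and Sqle (-0.32) and Srebf2 (-0.086) not. With precision weights Scd1 no longer passed in heart (-0.85, leaving 1) or kidney (-0.82, leaving 0).

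Without the intensity trend, limma's adjusted p was above 0.05 for the same values of Scd1 in brain (1.20), heart (-0.86) and kidney (-0.84), Sqle in heart (-0.88) and liver (0.79), Srebf1 (0.61) and Fasn (0.61) in liver and Srebf2 in FFPE (-0.51), which left 0 calls in the 4 organ comparisons and 1 gene lower in FFPE. Of all 25680 tested genes, 0 passed in heart, kidney or liver without the trend, and 217 in brain. Without the organ term Sqle (-0.77) and Srebf2 (-0.51) did not pass in FFPE, leaving 0 lower. The causes were not tested.

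On leaving out each library in turn, members higher numbered 0 to 1 in brain, 0 to 1 in kidney and 0 to 2 in liver, and members lower 0 to 1 in brain, 0 to 2 in heart, 0 to 1 in kidney and 1 to 2 in FFPE. In brain, Hmgcs1 ranged from -0.72 to -0.50, Sqle from -0.041 to 0.17, Scd1 from 1.09 to 1.31 and Acaca from -0.14 to 0.079. In heart, Sqle ranged from -0.93 to -0.83, Srebf1 from -0.19 to 0.18 and Scd1 from -0.91 to -0.82. In kidney, Hmgcs1 ranged from 0.61 to 0.83, Sqle from -0.051 to 0.088 and Scd1 from -0.87 to -0.80. In liver, Sqle ranged from 0.64 to 0.94, Srebf1 from 0.54 to 0.68, Srebf2 from -0.096 to 0.24, Fasn from 0.57 to 0.64 and Acaca from -0.0096 to 0.42, and Srebf2 in FFPE from -0.61 to -0.43. Among pairs, signs turned at Acaca in brain against heart (-0.017 to 0.65), liver against brain (-0.037 to 0.40) and liver against kidney (-0.27 to 0.16), Hmgcs1 in brain against heart (-0.39 to 0.28), Scd1 in kidney against heart (-0.023 to 0.068), Sqle (-0.14 to 0.071) and Srebf1 (-0.24 to 0.17) in kidney against brain and Srebf2 in liver against heart (-0.00056 to 0.33), none of which had passed. Of 54 calls in the pathway lists, 49 remained with no filter, 40 with quantile normalization, 47 with precision weights, 54 with a prior of 2 reads and 15 without the trend, and 15 of the 25 for FFPE without the organ term.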

Other observations

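Beside Scd1 and Scd2, the mouse has the related desaturase genes Scd3 and Scd4. Scd3 had 20.2 to 26.7 CPM in the 4 FFPE libraries and 9.25 to 16.1 CPM in the 4 frozen ones, with no overlap, as 13.1% of tested genes showed in this direction. Scd4 had 26.3, 22.8, 22.1 and 18.8 CPM in FFPE brain, heart, kidney and liver, and 15.6, 13.8, 15.6 and 12.8 CPM in frozen brain, heart, kidney and liver. Neither passed for any organ, including brain (0.32 for Scd3, limma adjusted p = 0.682, and 0.23 for Scd4, adjusted p = 0.750), where Scd1 and Scd2 passed as higher. Between FFPE and frozen tissue Scd3 differed by 0.96 ± 0.27 log2 units (SE; adjusted p = 0.0138), a call lost after quantile normalization (adjusted p = 0.0593) and without either kidney library (adjusted p = 0.108 without FFPE kidney and 0.0908 without frozen kidney), while Scd4 had 0.64 ± 0.25 (adjusted p = 0.0554). How reads that match more than 1 of these similar genes were counted is not stated.

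Insig1 and Insig2, which hold the SREBP factors back, both passed as lower in FFPE. Insig2 had 25.1, 34.1, 24.96 and 28.6 CPM in FFPE brain, heart, kidney and liver, and 48.4, 44.9, 33.6 and 80.6 CPM in frozen brain, heart, kidney and liver (-0.82 ± 0.21 log2 units, adjusted p = 0.0095), a call lost without limma's intensity trend (adjusted p = 0.0601) and without the organ term (adjusted p = 0.0505). Insig1 had 67.04, 49.5, 52.0 and 69.9 CPM in FFPE brain, heart, kidney and liver, and 115.3, 94.0, 95.4 and 205.0 CPM in frozen brain, heart, kidney and liver. Frozen liver was the highest library at both genes.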
